A study of Lytechinus variegatus with 9 samples.

Results

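Axitinib, a small molecule that blocks the kinase activity of VEGF receptors, was compared with its DMSO control in whole embryos of the sea urchin Lytechinus variegatus, and the messenger RNA of all expressed genes was read for genes that fell and genes that rose. The comparison used 6 of the 9 libraries of the series: 3 from embryos in 75 nM axitinib and 3 from embryos in DMSO, chosen by treatment label and paired by the mating that the embryos came from. Of 26814 genes in the count table, 16035 had enough counts in these libraries to be tested. The embryos were wild type and received axitinib or DMSO in artificial seawater once the tri-radiate spicule rudiments had formed, at 18 to 20 h post-fertilization (hpf), and they were raised at 21 °C and collected as late plutei at 2 days post-fertilization (dpf). Each of the 3 matings supplied 1 library per treatment, so every library is a pool of whole embryos from 1 mating, and the other 3 libraries of the series came from the same matings treated with 1 µM K02288, an inhibitor of type I BMP receptors. The question behind the design is how VEGF signalling, set apart from BMP signalling, contributes to skeletal growth after the spicule rudiments have formed.

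VEGF receptors are receptor tyrosine kinases: ligand binding activates the kinase, which signals through Ras and the MAP kinase cascade to ETS-domain transcription factors, and these cells also make sprouty, SPRED and dual-specificity phosphatase proteins that damp the same cascade. In the sea urchin embryo the receptor is made by the primary mesenchyme cells (PMCs), which secrete the calcite skeleton, while ectodermal cells above them make a VEGF ligand that guides the cells and promotes biomineral deposition. Axitinib is selective for VEGF receptors in mammals, but it can also inhibit related receptor tyrosine kinases such as the PDGF receptors. Because RNA was taken from whole embryos, fewer cells of a type and less RNA per cell cannot be told apart in any value below.

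The axitinib libraries held 10341190, 10921655 and 9359212 counts on genes for matings 1, 2 and 3, against 9942452, 11815263 and 10076263 counts in the DMSO libraries. In a principal component analysis of the 6 libraries, the first and second components (38.8% and 35.2% of the variance) parted the matings, and the third (14.1%) parted axitinib from DMSO. The biological coefficient of variation was 0.127 with the mating in the model and 0.332 without it, so all differences were tested within matings, and a gene was called when its p from edgeR's quasi-likelihood test, adjusted over all genes tested, was under 0.05. Values below are normalized counts (counts scaled to a common library size) in matings 1, 2 and 3, and log2 fold changes are axitinib over DMSO with their standard error (SE). Counting error sets a floor of 3 counts per library, which is 3.21e-05% of the counts in the shallowest axitinib library and 3.02e-05% in the shallowest DMSO library.

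Axitinib lowered 551 genes (3.44% of the genes tested) and raised 447 (2.79%), 998 (6.22%) in all. The shares of 3.44% and 2.79% are those to set beside the count of each list below. The falls were larger than the rises. Of the genes that fell, 187 changed at least 2-fold, 57 at least 4-fold and 20 at least 8-fold, whereas 93 of the genes that rose changed at least 2-fold, 10 at least 4-fold and 1 at least 8-fold. The median log2 fold change was -0.78 among genes that fell and 0.64 among genes that rose, with 0.01 over all genes tested. Genes that fell took 4.12%, 4.19% and 4.06% of all counts in the axitinib libraries of matings 1, 2 and 3, against 6.48%, 6.94% and 6.89% in the DMSO libraries, while genes that rose took 8.16%, 7.56% and 8.2% with axitinib against 5.38%, 5.08% and 5.23% with DMSO. The same direction held in all 3 matings for 549 of the genes that fell and 445 of those that rose. A test within matings favours such genes, so this agreement is no separate support for the calls. The 2 groups of libraries did not overlap at all for 368 of the 551 genes that fell and for 207 of the 447 that rose, beside 1631 (10.2%) of all genes tested. Mating 3 weighed most in the counts: without it 321 genes fell and 203 rose. Without the mating in the model, 16 genes fell and 4 rose, and an unadjusted p of at most 0.05 in that model took in 493 lower genes (3.07%) and 284 higher genes (1.77%), or 777 (4.85%).

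**Figure D1:**
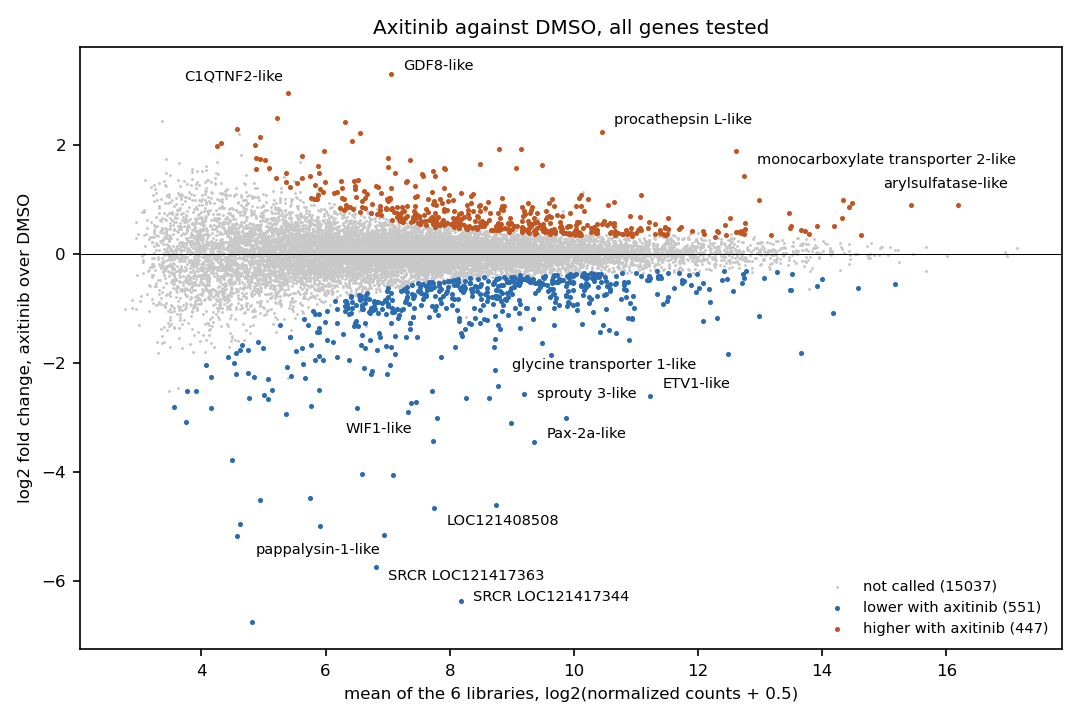
Log2 fold change of axitinib over DMSO (y axis) against the mean level over the 6 libraries on a log2 scale (x axis) for the 16035 genes tested, with the 551 genes that fell in blue, the 447 that rose in orange and the rest in grey. The points farthest from 0 lie below the line, where 20 genes fell at least 8-fold against 1 that rose as far.

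Among VEGF, PDGF and FGF ligands and receptors, 14 genes were tested, of which 2 fell (14.3%), 2 rose (14.3%) and 10 were not called. The VEGF receptor of the PMCs, annotated as vascular endothelial growth factor receptor 2-like and known in sea urchins as vegfr-Ig10 (flt1; LOC121408625, chromosome 1, 20230039 to 20283425, assembly Lvar_3.0, whose coordinates are used throughout), had 348, 274 and 308 normalized counts with axitinib and 612, 657 and 757 with DMSO. All 3 axitinib libraries lay below all 3 DMSO libraries, and the receptor's messenger fell with a log2 fold change of -1.12 (SE 0.124, adjusted p = 3.36e-05). The ligand gene platelet-derived growth factor subunit A-like (LOC121407686) fell within each mating, with 23.1, 9.06 and 101 normalized counts under axitinib and 65.2, 24.8 and 209 under DMSO (log2 fold change -1.26, adjusted p = 0.00702). Its groups overlapped because the matings differed more from each other than the treatments did, and without mating 3 it was not called (adjusted p = 0.163).

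The receptor gene platelet-derived growth factor receptor alpha-like (LOC121415121, chromosome 5, 4972843 to 5033698), a receptor tyrosine kinase related to the VEGF receptors, went the other way. It had 275, 247 and 236 normalized counts with axitinib and 87, 61.9 and 81.7 with DMSO, with no overlap, and rose 3.31-fold (log2 fold change 1.73, SE 0.168, adjusted p = 9.16e-06). Fibroblast growth factor 18-like (LOC121425661) rose as well, with 211, 94.6 and 219 normalized counts against 124, 71.6 and 102 (log2 fold change 0.77, adjusted p = 0.0183), a call that was lost without mating 1 (adjusted p = 0.0764) or mating 3 (0.249). The most abundant receptor of the list, fibroblast growth factor receptor-like LOC121425598, had 4864, 4389 and 4829 normalized counts with axitinib and 4266, 4524 and 5109 with DMSO, a difference of 0.02 in log2 with an adjusted p of 0.943. A further receptor gene, LOC121420312, is annotated as ephrin type-B receptor 3-like and was therefore counted in the guidance list, but the study lists it as the FGF receptor-type gene fgfr2l, and its product carries immunoglobulin and kinase domains with no ephrin-binding domain annotated. LOC121420312 had 332, 244 and 314 normalized counts with axitinib and 512, 429.6 and 495 with DMSO, without overlap, and fell (log2 fold change -0.70, SE 0.119, adjusted p = 0.0017). The 2 genes annotated as VEGF receptor 1-like were low throughout, at 8.91 to 46.3 normalized counts with axitinib and 19.4 to 44 with DMSO, and neither was called (adjusted p 0.289 for LOC121426679 and 0.909 for LOC121426153).

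In the list of ETS-domain factors, sprouty and dual-specificity phosphatase genes, 9 of 33 genes fell (27.3%) and 1 rose (3.03%). The median log2 fold change was -0.13, beside 0.01 over all genes tested. ETS translocation variant 1-like (LOC121410751, chromosome 3, 30632985 to 30659456), an ETS factor of the subfamily that vertebrate receptor tyrosine kinases activate through ERK, had 646, 744 and 640.2 normalized counts with axitinib and 4055, 4297 and 4000.4 with DMSO. Every axitinib library held less than every DMSO library, and the gene fell 6.09-fold (log2 fold change -2.61, SE 0.0974, adjusted p = 2.55e-10). Its neighbour on the same strand, ETS translocation variant 4-like (LOC121410752, 30692833 to 30712531), had 71.4, 41.3 and 27.8 against 252, 326 and 329.9, and fell 6.54-fold (log2 fold change -2.71, SE 0.248, adjusted p = 5.01e-06). The treatments did not overlap for that gene either.

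Feedback inhibitors of the cascade fell too. Protein sprouty homolog 3-like (LOC121430850, chromosome 1, 12367621 to 12382002), which restrains Ras and MAP kinase signalling, had 139, 219 and 155 normalized counts with axitinib and 826, 1176 and 1014 with DMSO (log2 fold change -2.56, SE 0.118, adjusted p = 3e-09). Sprouty-related, EVH1 domain-containing protein 2-like (LOC121418204), a SPRED protein of the same kind of action, had 763, 906 and 795 against 1697, 1712 and 1710.1 and fell 2.08-fold (adjusted p = 6.08e-06). In both genes the axitinib and DMSO libraries were far apart relative to the spread within each treatment. The following 5 genes of the list were picked for naming after their values had been seen. Dual specificity protein phosphatase 6-like (LOC121410948), a phosphatase of ERK, had 244, 315 and 254 with axitinib against 408, 486 and 453 with DMSO (log2 fold change -0.73, adjusted p = 0.00141). C-ets-1-like (LOC121419770), whose sea urchin counterpart activates skeletogenic genes in PMCs, had 264, 225 and 193 against 461, 549.8 and 547 (log2 fold change -1.20, adjusted p = 6.44e-05). A second C-ets-1 gene, c-ets-1-B-like (LOC121419790), fell by 0.95 (adjusted p = 0.00217), and the ETS factor Elk-3-like (LOC121410589) by 0.42 (adjusted p = 0.0252, not called without mating 1 or 3, at 0.154 and 0.085). Dual specificity protein phosphatase 1-B-like (LOC121424991) fell by 0.63 in log2 (adjusted p = 0.00952), with adjusted p of 0.0601 and 0.0589 without mating 2 or 3.

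**Figure D2:**
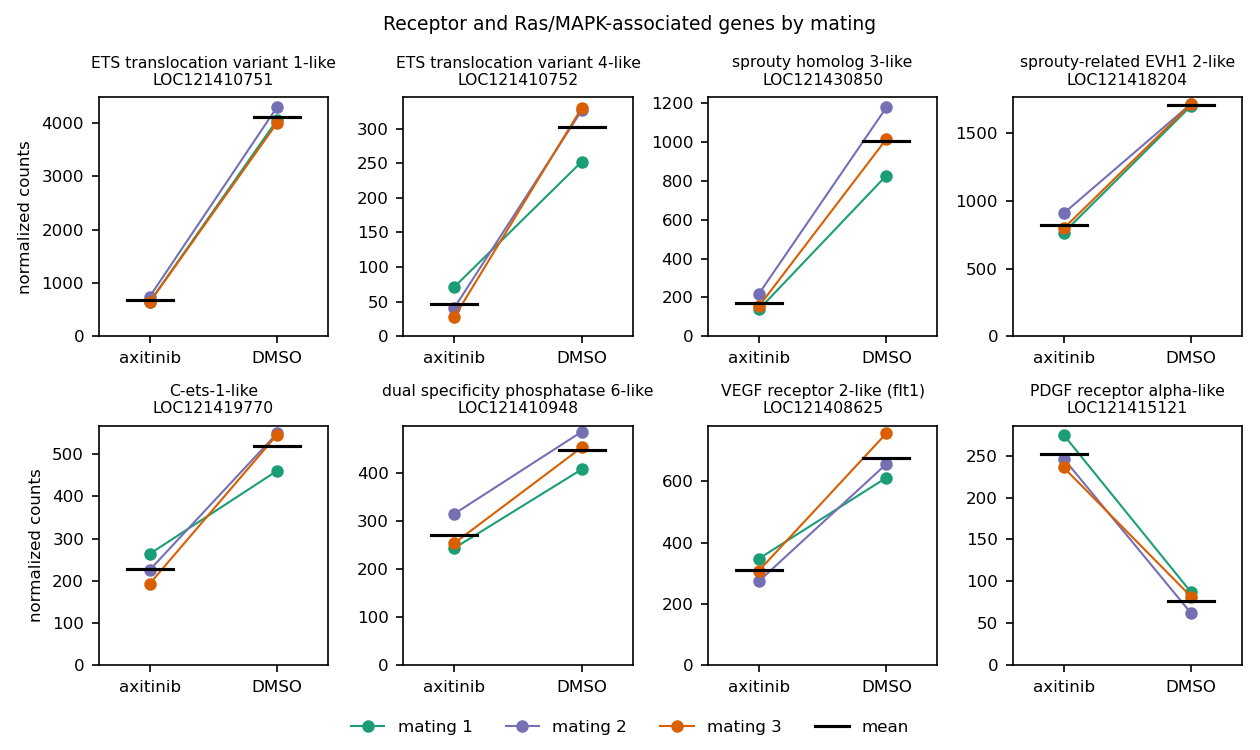
Normalized counts (y axis, from 0) of 8 receptor and Ras/MAPK-associated genes with axitinib (left) and DMSO (right); each coloured line joins the 2 libraries of 1 mating and black bars mark the means of 3. Lines run upwards to DMSO in every mating for the VEGF receptor, the ETS, sprouty, SPRED and phosphatase genes, and downwards for the PDGF receptor alpha-like gene, which had 236 to 275 normalized counts with axitinib and 61.9 to 87 with DMSO.

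The one gene of that list that rose was also an ETS factor, transcriptional regulator Erg-like (LOC121419884, picked after its values were seen), with 204, 353 and 296 normalized counts with axitinib and 176, 180.3 and 204 with DMSO (log2 fold change 0.58, adjusted p = 0.0388; 0.293 without mating 2 and 0.138 without mating 3). Of 39 Ras, Raf, MAP kinase and adaptor genes of the cascade itself, 1 fell (2.56%) and 2 rose (5.13%), with a median log2 fold change of -0.02. Over all genes tested the shares were 3.44% and 2.79%. The gene that fell, dual specificity mitogen-activated protein kinase kinase 1-like (LOC121415882), had 24.1, 19.1 and 10 normalized counts under axitinib and 101, 127 and 14.7 under DMSO. The DMSO library of mating 3 was as low as the axitinib libraries, so the groups overlapped, and without mating 2 the adjusted p was 0.0872. Ras-like protein rasD (LOC121410635), a small GTPase, rose in every mating, with 1629, 1505 and 4100.5 against 1079.6, 985 and 2225 (log2 fold change 0.70, adjusted p = 0.000323). Among 11 immediate-early factor genes, which many growth factor receptors induce, 2 fell (18.2%), Krueppel-like factor 6 (LOC121423785, log2 fold change -0.57, adjusted p = 0.00149) and early growth response protein 1-B-like (LOC121424778, -0.54, adjusted p = 0.0366). The call of the early growth response gene was lost without mating 2 (0.068) or mating 3 (0.446).

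The largest falls were in genes outside the skeletal and signalling lists. Scavenger receptor cysteine-rich (SRCR) domain superfamily protein-like LOC121417344 (chromosome 6, 30152138 to 30166981), a member of a large family of surface and secreted proteins, many made by sea urchin immune cells, had 7.35, 5.03 and 7.79 normalized counts with axitinib and 665, 333 and 716 with DMSO. That is an 82.7-fold fall (log2 fold change -6.37, SE 0.208, adjusted p = 6.82e-11). A second gene of the same annotation, LOC121417363 (31236266 to 31252131), had 8.4, 2.01 and 1.11 with axitinib against 197, 150.3 and 312 with DMSO (log2 fold change -5.75, adjusted p = 9.58e-08). Both were close to lost in all axitinib libraries. The most abundant SRCR gene named that fell was galectin-3-binding protein B-like (LOC121410506), with 5832, 7879 and 3883 normalized counts under axitinib against 16769, 21728 and 21823 under DMSO, without overlap (log2 fold change -1.82, SE 0.156, adjusted p = 2.53e-06). Members of this family can share reads, so the level of a single copy is uncertain. Over the whole SRCR list, 16 of 99 tested genes fell (16.2%) and 4 rose (4.04%). The median log2 fold change was 0.00, and without mating 3 the counts were 10 and 2.

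Several genes of signalling and sensory function were also nearly lost. Pappalysin-1-like (LOC121428963), named for a secreted metalloprotease that cleaves insulin-like growth factor binding proteins in mammals, had 1.05, 7.04 and 12.2 normalized counts with axitinib and 180.5, 245 and 292 with DMSO (log2 fold change -5.16, SE 0.302, adjusted p = 3.53e-08). Rhodopsin-like (LOC121432227), a light receptor gene by its name, had 5.25, 0 and 5.57 against 91.3, 84 and 173 (adjusted p = 3.47e-06). These groups were separated by an order of magnitude. A pair of uncharacterized genes whose products carry the ligand-binding and membrane domains of class C G protein-coupled receptors, the class of metabotropic glutamate receptors, fell together: LOC121408508 had 19.9, 14.1 and 12.2 with axitinib and 688, 239.6 and 308 with DMSO. LOC121408446, on the same chromosome 2, had 18.9, 16.1 and 8.91 against 390.3, 157 and 217 (log2 fold changes -4.67 and -4.06, adjusted p = 3e-09 and 6.41e-08). LOC121407971, with no annotated domain, had 9.45, 65.4 and 31.2 with axitinib and 776, 889 and 803 with DMSO (log2 fold change -4.60, adjusted p = 3.1e-08). Synaptojanin-1-like (LOC121410718), named for a phosphatase of membrane phosphoinositides, had 2.1, 0 and 5.57 against 42.4, 25.6 and 106 (adjusted p = 9.38e-05).

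Of the genes above, SRCR gene LOC121417363, pappalysin-1-like, rhodopsin-like and synaptojanin-1-like each had an axitinib library at or under the floor of 3 counts. The size of their falls is therefore uncertain. The next genes were called with axitinib values at or near the counting floor in every library, so only their values are given. LOC121411125, annotated as a probable cysteine desulfurase, had 0, 1.01 and 0 normalized counts with axitinib and 25, 30.9 and 109 with DMSO (adjusted p = 5.16e-05). LOC121411177, of the same annotation and chromosome, had 2.1, 1.01 and 0 against 42.4, 17.7 and 77.5 (adjusted p = 0.000276), and the uncharacterized LOC121430819 had 0, 2.01 and 2.23 against 38, 64.5 and 37.7 (adjusted p = 0.000138). No axitinib library of these genes came near a DMSO library.

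Developmental transcription factors went in both directions. Of 75 homeodomain factors, which pattern territories and cell types, 9 fell (12%) and 10 rose (13.3%). Their median log2 fold change was -0.17, and without mating 3 the counts were 6 and 5. Paired box protein Pax-2a-like (LOC121432245, chromosome 18, 19969777 to 20007926), which the homeodomain list did not hold, fell most among the factors named by the rule, with 188, 123 and 41.2 normalized counts under axitinib and 1217, 1393 and 992 under DMSO (log2 fold change -3.45, SE 0.222, adjusted p = 9.58e-08). Homeobox protein abdominal-A homolog (LOC121420817), a Hox factor, averaged 37.04 ± 9.41 normalized counts with axitinib and 159.3 ± 49.9 with DMSO (SD, n = 3 each), with a log2 fold change of -2.09 and an edgeR adjusted p of 1.26e-05. In both genes every axitinib library lay below every DMSO library. Thyroid transcription factor 1-like (LOC121418999) and goosecoid (LOC446163), goosecoid being a factor of the oral ectoderm, fell by 0.82 and 0.83 (adjusted p = 0.000277 and 0.00066).

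Of 37 basic helix-loop-helix factors 2 fell (5.41%) and 1 rose (2.7%), beside 3.44% and 2.79% of all genes tested. Transcription factor SUM-1 (LOC121405904), the sea urchin myogenic factor of the MyoD family, had 13.7, 8.05 and 5.57 normalized counts with axitinib against 51.1, 56.6 and 64.9 with DMSO (log2 fold change -2.66, adjusted p = 0.00104). Transcription factor 21-like (LOC121430479), a mesodermal factor in vertebrates, had 55.6, 56.4 and 39 against 171, 286 and 175 (log2 fold change -2.04, adjusted p = 9.16e-06). The study names SUM-1 and this gene as myoD and myoR2, and describes both as selective to ventral PMCs. Neither gene's groups overlapped. Of 67 forkhead, HMG-box, T-box, GATA and Runt factors, 5 fell (7.46%) and 0 rose in edgeR. At an unadjusted p under 0.05 there were 9 lower and 9 higher, and DESeq2 called 0 higher. The genes that fell included fork head domain-containing protein FD5-like (LOC121415368, log2 fold change -1.16, adjusted p = 0.000215), forkhead box protein I1c-like (LOC121425569, -1.05, adjusted p = 0.00369) and forkhead box protein D3-like (LOC121423994, -0.58, adjusted p = 0.00668, not called without mating 1 at 0.0642).

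The homeodomain factors that rose included LIM/homeobox protein Lhx5-like (LOC121409326), a neural factor of the anterior embryo in vertebrates. It had 1570.4, 1374 and 1859 normalized counts with axitinib and 794, 790.3 and 801 with DMSO (log2 fold change 1.00, SE 0.105, adjusted p = 2.05e-05). Homeobox protein MSX-2-like (LOC121419325), of a family that responds to BMP in many animals, had 998, 897 and 838 against 602, 532 and 610.5 (log2 fold change 0.65, adjusted p = 0.00133). All axitinib libraries of these genes exceeded all DMSO libraries. BarH-like 1 homeobox protein (LOC121428731) had 132, 38.2 and 308 against 30.4, 24.8 and 27.2, a rise of 2.22 in log2 whose size differed widely between matings and which was not called without mating 3 (adjusted p = 0.0594). Homeobox protein unplugged-like (LOC121411786) rose by 0.91 (adjusted p = 0.00133), and 2 genes annotated as homeobox protein DLL homolog, a factor of appendages and ectoderm, rose by 1.09 (LOC121410883, adjusted p = 0.00265) and 0.62 (LOC121410887, adjusted p = 0.0187; 0.202 without mating 3). The DLL genes were picked after their values were seen. Among 31 nuclear receptors 1 fell (3.23%) and 3 rose (9.68%), beside 3.44% and 2.79% of all genes tested. Nuclear receptor subfamily 5 group A member 2-like (LOC121428489) led with 432, 263 and 307 against 206, 177 and 124 (log2 fold change 0.98, adjusted p = 0.00104).

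The aristaless-like homeobox protein gene alx1 (LOC447794), the factor that specifies the PMCs, rose. It had 543, 773 and 923 normalized counts with axitinib and 463, 514 and 519 with DMSO (log2 fold change 0.55, SE 0.122, adjusted p = 0.0111), without overlap, and the call was lost without mating 3 (adjusted p = 0.206). Some genes that build the skeleton fell. Of 15 tested MSP130 and spicule matrix protein genes, which encode the surface and matrix proteins of the biomineral, 7 fell (46.7%). In edgeR 0 rose (0 also in DESeq2 and 0 at an unadjusted p under 0.05), and the median log2 fold change was -0.61. Mesenchyme-specific cell surface glycoprotein-like LOC121427215 (chromosome 14, 17199073 to 17220319), an MSP130-family gene, had 2855, 2478 and 2396 with axitinib against 5615, 7308 and 5374 with DMSO (log2 fold change -1.23, SE 0.11, adjusted p = 4.07e-06). The next genes of this annotation that follow on the same strand, LOC121427374 and LOC121427467, fell by 0.81 and 0.79 (adjusted p = 0.000603 and 0.00346), and LOC121427467 was not called without mating 3 (0.0541). LOC121406083, annotated as 30 kDa spicule matrix protein-like, fell by 0.87 (adjusted p = 0.000232), with 2137, 2229 and 1754 normalized counts against 3651, 3309 and 4197. The 41 kDa spicule matrix protein-like gene LOC121405817 fell by 0.61 (adjusted p = 0.0321) but was called in none of the fits that left out a mating (adjusted p 0.0961 to 0.125). LOC121427467 and LOC121405817 were picked after their values were seen, and reads of these close copies may be shared between them. Of 52 carbonic anhydrases and carbonate, sulfate, proton and calcium transport genes, which supply or clear ions of the biomineral, 2 fell (3.85%) and 1 rose (1.92%). These shares were near the 3.44% and 2.79% of all genes tested, and the median was 0.02. The genes that fell were sodium-driven chloride bicarbonate exchanger-like LOC121418448 and LOC121420025 (log2 fold changes -0.43 and -0.40, adjusted p = 0.0499 and 0.049), and carbonic anhydrase 14-like LOC121430996 rose by 0.47 (adjusted p = 0.00702). Without mating 3 none of the 3 was called (adjusted p 0.107, 0.378 and 0.085).

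The list of PMC-enriched genes, taken by identifier from published single-cell data, held 300 tested genes, of which 45 fell (15%) and 9 rose (3%), and their median log2 fold change was -0.14. Outside the list, 506 of 15735 genes fell (3.22%) and 438 rose (2.78%), with a median of 0.02. Without mating 3, 26 genes of the list fell and 2 rose. Of 61 genes with a C-type lectin domain, a fold shared by sea urchin spicule matrix proteins and many other sugar-binding proteins, 8 fell (13.1%) and 1 rose (1.64%). Snaclec echicetin subunit beta-like (LOC121405990) had 126, 68.4 and 64.6 with axitinib against 594, 463 and 527 with DMSO (log2 fold change -2.65, SE 0.162, adjusted p = 5.89e-08). The lowest DMSO library of that gene exceeded the highest axitinib library.

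Of 25 matrix metalloproteinases, which remodel extracellular matrix, and their inhibitors, 7 fell (28%) and 2 rose (8%), and the median log2 fold change was -0.34. Matrix metalloproteinase-19-like (LOC121408162) had 18.9, 8.05 and 14.5 normalized counts with axitinib against 104, 84 and 95.3 with DMSO (log2 fold change -2.80, SE 0.316, adjusted p = 4.13e-05). The 72 kDa type IV collagenase-like gene LOC121409164, named for an enzyme that cleaves basement membrane collagen, had 48.3, 31.2 and 32.3 against 171, 133 and 217 (log2 fold change -2.20, adjusted p = 1.58e-05). Neither gene's groups overlapped. Stromelysin-1-like LOC121409094 fell by 0.99 and matrix metalloproteinase-21-like LOC121424716 by 0.77 (adjusted p = 3.99e-05 and 0.00012). On chromosome 2, stromelysin-1-like lies between macrophage metalloelastase-like LOC121409093 (log2 fold change -0.71, adjusted p = 0.000755) and matrix metalloproteinase-24-like LOC121409095 (-0.53, adjusted p = 0.0342; 0.461 without mating 3), both picked after their values were seen. By its own calls, the study lists LOC121409095 as lowered by K02288 and not by axitinib.

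The protease inhibitors were split. Metalloproteinase inhibitor 3-like (LOC121410441, picked after its values were seen) had 22, 29.2 and 47.9 normalized counts with axitinib against 96.8, 158 and 58.6 with DMSO (log2 fold change -1.62, adjusted p = 0.00961; 0.111 without mating 2). Metalloproteinase inhibitor 1-like (LOC121410437), on the same chromosome, rose, with 532, 921 and 908 against 304, 528 and 579 (log2 fold change 0.75, adjusted p = 0.000346). In that gene the groups overlapped between matings while each mating rose on its own. Matrix metalloproteinase-2-like (LOC121431984) rose by 0.54 (adjusted p = 0.0145; 0.18 without mating 3). Of 18 ADAM and ADAMTS proteases 2 fell and 2 rose (11.1% each), among them an uncharacterized gene with ADAMTS domains, LOC121429044, which was one of the more abundant genes that fell (24268, 14809 and 19396 against 30514, 27626 and 30142; log2 fold change -0.62, adjusted p = 0.00219).

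Extracellular matrix genes changed in both directions, with 11 of 74 collagens, basement membrane proteins and integrins falling (14.9%) and 7 rising (9.46%). Without mating 3 the counts were 10 and 2. Fibrillin-1-like (LOC121410756, chromosome 3, 31012526 to 31042057), named for a protein of elastic microfibrils, had 98.7, 196 and 121 normalized counts with axitinib and 587, 735 and 896 with DMSO (log2 fold change -2.43, SE 0.163, adjusted p = 1.5e-07). Fibrillin-3-like (LOC121411906) had 3203, 3746 and 3853 against 4733, 6448 and 5825 (log2 fold change -0.65, adjusted p = 0.000378). Both genes separated the treatments completely. Integrin alpha-8-like (LOC121425848), an adhesion receptor, fell by 1.32 (adjusted p = 0.00241), and fibrillin-2-like (LOC121431232) by 0.61 (adjusted p = 0.00103), the second with overlapping groups since mating 2 was low in both treatments. Collagen alpha-1(I) chain-like (LOC121428996), a fibrillar collagen by name, rose, with 698, 541 and 902 against 447, 286 and 620.0 (log2 fold change 0.70, adjusted p = 0.00121). Another pair of genes, of the calcium-binding SPARC family, rose by 0.41 and 0.44: SPARC-like LOC121431621 (adjusted p = 0.0109) and SPARC-related modular calcium-binding protein 1-like LOC121418551 (adjusted p = 0.0121). Each of the SPARC genes lost its call when mating 1 or 3 (SPARC-like, 0.0509 and 0.107) or mating 2 or 3 (SPARC-related, 0.0718 and 0.0629) was left out.

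Secreted signals of the TGF-beta superfamily also went both ways, with 4 of 30 genes falling and 4 rising (13.3% each). Growth/differentiation factor 8-like LOC121426703 (chromosome 13, 33699770 to 33709836), named for the ligand myostatin, had the largest rise of all genes named, with 392, 178 and 152 normalized counts under axitinib and 34.8, 26.5 and 10.5 under DMSO (log2 fold change 3.29, SE 0.229, adjusted p = 2.19e-07). The axitinib mean was 240.7 ± 131.2 and the DMSO mean 23.93 ± 12.36 (SD, n = 3 each). A second gene of that annotation, LOC121423913, had 184, 107 and 298 against 40.2, 31.8 and 110.0 (log2 fold change 1.75, adjusted p = 4.31e-05). The nodal homolog (LOC121431988), the signal of oral and left-right patterning, had 129, 156 and 101 with axitinib and 26.1, 99.9 and 37.7 with DMSO (log2 fold change 1.35, SE 0.271, adjusted p = 0.00578). Its antagonist, left-right determination factor 2-like (LOC121418144), had 81.9, 171 and 95.8 against 18.5, 135 and 30.4 (log2 fold change 1.19, adjusted p = 0.0227; not called without mating 1 or 3, at 0.0945 and 0.123). In mating 2 both genes were already high with DMSO and rose least.

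BMP2/4 itself (LOC446159) fell by 0.53 in log2, with 644, 544 and 495 normalized counts against 995, 760.2 and 695 (adjusted p = 0.00475). The BMP antagonists BMP-binding endothelial regulator protein-like (LOC121424882) and chordin-like (LOC121427607) fell by 1.00 and 0.51 (adjusted p = 0.000201 and 0.015), and the second was not called without mating 1 (0.105). Of 31 Wnt pathway genes, 5 fell (16.1%) and 0 rose in edgeR (0 at an unadjusted p under 0.05 and 0 in DESeq2). Without mating 3 the count that fell was 2. Wnt inhibitory factor 1-like (LOC121411384), which binds Wnt ligands outside the cell, had 67.2, 19.1 and 25.6 with axitinib against 409, 318 and 426 with DMSO (log2 fold change -3.43, SE 0.241, adjusted p = 2.33e-07). Dickkopf-related protein 2-like (LOC121432167), of a family that binds Wnt co-receptors, had 36.7, 69.4 and 74.6 against 132, 221 and 222 (log2 fold change -1.68, adjusted p = 2.9e-05). These are both extracellular modulators, and neither gene's groups overlapped. Protein Wnt-5b-like (LOC121411849) and transcription factor 7-like 2 (LOC121432141), a nuclear effector of the pathway, fell by 0.54 and 0.58 (adjusted p = 0.0272 and 0.0225). Wnt-5b-like was not called without mating 2 or 3 (0.0527 and 0.34), nor was the nuclear effector without mating 1 or 3 (0.125 and 0.0597).

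In the list of synaptic and neurotransmitter genes, 14 of 168 fell (8.33%) and 0 rose in edgeR, with a median of -0.05. At an unadjusted p under 0.05 there were 8 higher, and 0 in DESeq2. Glutamate receptor genes close to each other on chromosome 5 were among them. Glutamate receptor 2-like LOC121415636 had 648, 2377 and 805 normalized counts with axitinib against 1841, 4218 and 1894 with DMSO (log2 fold change -1.18, SE 0.118, adjusted p = 1.26e-05), and glutamate receptor 1-like LOC121415638 and LOC121415635 fell by 0.94 and 0.62 (adjusted p = 8.11e-05 and 0.000581). Mating 2 stood apart from the other matings in level for all 3 genes, so the groups overlapped, while each mating fell. Copies this close may share reads. Of 66 axon guidance, cadherin and ephrin genes 8 fell (12.1%) and 2 rose (3.03%), with a median of -0.15. Roundabout homolog 1-like (LOC121420473), a receptor of the Slit guidance cues, had 203, 124 and 494 against 496, 299.7 and 928 (log2 fold change -1.14, adjusted p = 3.37e-05). Ephrin-B2-like (LOC121417006, picked after its values were seen), a ligand of the ephrin pathway, fell by 0.51 (adjusted p = 0.00918; 0.0667 without mating 3), as did plexin-A2-like (LOC121411870, 0.66, adjusted p = 0.00072) and teneurin-3-like (LOC121409056, 0.65, adjusted p = 0.0012).

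Of 188 amino acid, monocarboxylate, glucose and organic ion transporters, 12 fell (6.38%) and 15 rose (7.98%). Without mating 3 the counts were 10 and 6. Sodium- and chloride-dependent glycine transporter 1-like LOC121424436 (chromosome 11, 19090997 to 19099845) had 2580.2, 2735 and 2188 normalized counts with axitinib and 8019, 10740.1 and 8137 with DMSO (log2 fold change -1.83, SE 0.0993, adjusted p = 1.75e-08). LOC121412006 and LOC121408800, of the same annotation on chromosome 1, fell by 1.00 and 0.82 (adjusted p = 2.18e-05 and 4.31e-05). Excitatory amino acid transporter-like (LOC121405965) fell by 0.79 (adjusted p = 8.36e-05). Among the muscle contractile apparatus genes, 6 of 42 fell (14.3%) and 1 rose (2.38%), or 3 and 0 without mating 3. Those that fell included titin-like LOC121417682 and LOC121417662 (log2 fold changes -0.82 and -0.69, adjusted p = 0.00172 and 0.00265) and smoothelin-like LOC121409285 (-0.59, adjusted p = 0.00301; 0.0756 without mating 3).

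Carriers of monocarboxylates and betaine were among the transporters that rose. Monocarboxylate transporter 2-like (LOC121430638, chromosome 17, 7333553 to 7344339), which moves lactate, pyruvate and related acids, had 9222, 11964 and 8872 normalized counts with axitinib and 3474, 4093 and 3563 with DMSO (log2 fold change 1.42, SE 0.0939, adjusted p = 1.19e-07). Monocarboxylate transporter 13-like (LOC121432057) had 1255, 1564 and 1703 against 665, 720.4 and 729.9 (log2 fold change 1.09, adjusted p = 6.43e-06), and large neutral amino acids transporter small subunit 4-like (LOC121408564), which the list did not hold, had 8529.9, 13588 and 10372 against 4294, 5850.0 and 6152 (log2 fold change 0.99, adjusted p = 1.78e-05). All 3 genes had no overlap between the treatments. Sodium- and chloride-dependent betaine transporter-like (LOC121417028) rose by 1.51 (adjusted p = 1.33e-05) and sodium-coupled monocarboxylate transporter 1-like (LOC121431367) by 0.67 (adjusted p = 0.000432). L-lactate dehydrogenase A chain-like (LOC121406038), which interconverts pyruvate and lactate, had 1673, 1308 and 1102 against 778, 762 and 659 (log2 fold change 0.88, SE 0.105, adjusted p = 7.65e-05). In the list of glycolysis and hypoxia response genes that holds it, 2 of 18 rose and 2 fell (11.1% each), hexokinase-2-like LOC121425403 being one that fell (log2 fold change -0.63, adjusted p = 0.000603). The other gene of that list that rose, DNA damage-inducible transcript 4 protein-like (LOC121431589), a stress-induced inhibitor of mTOR in vertebrates, had 819, 850.4 and 745 against 335, 426 and 511 (log2 fold change 0.94, adjusted p = 0.000323).

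Among hydrolases, procathepsin L-like (LOC121410870, chromosome 3, 35090954 to 35098692), the precursor of a lysosomal and digestive cysteine protease, had the lowest p of all genes that rose. It had 2542, 1908 and 2456 normalized counts with axitinib and 496, 478 and 486 with DMSO, a 4.69-fold rise (log2 fold change 2.23, SE 0.108, adjusted p = 3.93e-09). The DMSO libraries lay within a narrow range far below the axitinib libraries. In the list of digestive and lysosomal hydrolases, 11 of 126 rose (8.73%) and 8 fell (6.35%), or 4 each without mating 3. Phospholipase B1, membrane-associated-like LOC121417996 rose by 1.44 (adjusted p = 5.68e-05), and legumain-like (LOC121419078), another lysosomal cysteine protease, by 0.58 (adjusted p = 0.00223), while phospholipase A2, membrane associated-like LOC121423895 fell by 1.39 and carboxypeptidase B-like LOC121408758 by 1.28 (adjusted p = 3.2e-05 and 2.98e-06). LOC121429222, an uncharacterized gene with no annotated domain, had 9421, 10511 and 9727 against 2236, 2582 and 3253 (log2 fold change 1.89, SE 0.109, adjusted p = 3.1e-08), without overlap.

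**Figure D3:**
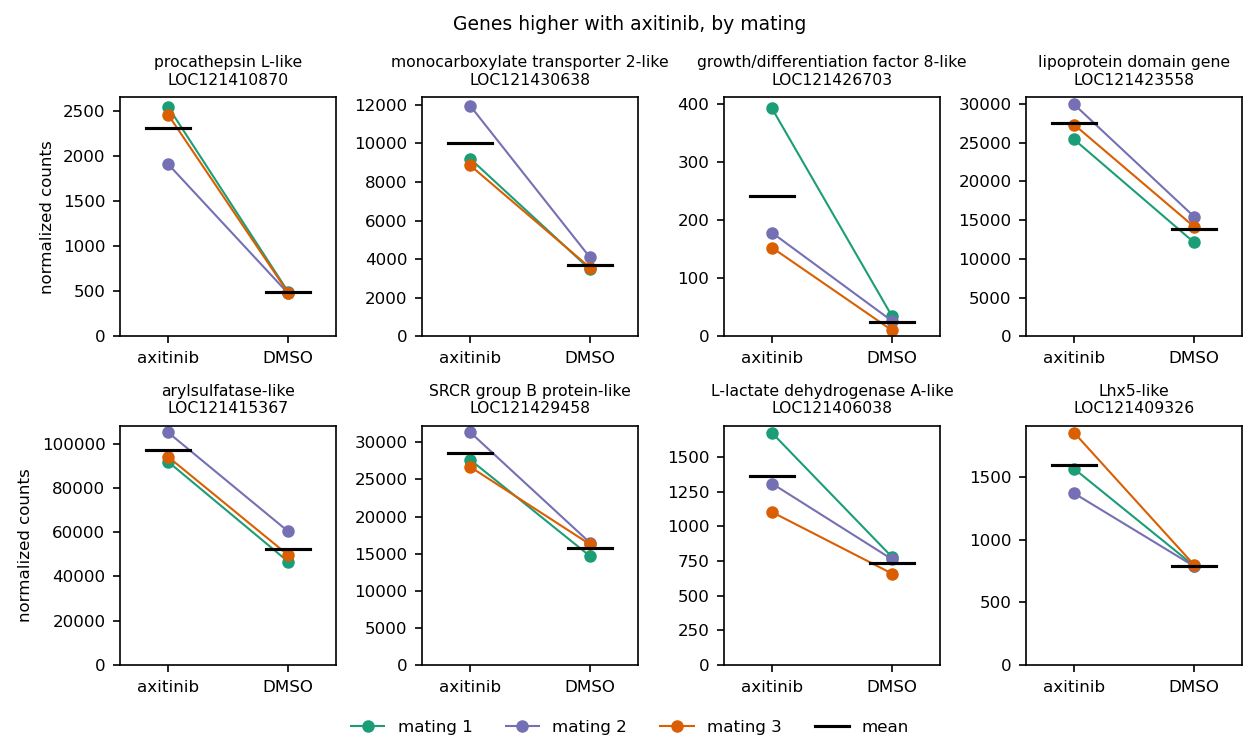
Normalized counts (y axis, from 0) of 8 genes that rose, with axitinib on the left and DMSO on the right; each coloured line joins the 2 libraries of 1 mating and black bars mark the means of 3. Every line falls towards DMSO, and for procathepsin L-like the axitinib libraries hold 1908 to 2542 normalized counts and the DMSO libraries 478 to 496.

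Some of the most abundant genes rose. Arylsulfatase-like LOC121415367 (chromosome 5, 12586938 to 12598294), of a sulfatase family that includes ectodermal matrix proteins of sea urchins, had 91814, 105051 and 94030.4 normalized counts with axitinib and 46690.1, 60359 and 49661 with DMSO (log2 fold change 0.90, SE 0.0961, adjusted p = 2.39e-05). Other arylsulfatase genes fell: arylsulfatase B-like LOC121427609 had 63, 163 and 77.9 against 351, 434 and 296 (log2 fold change -1.89, adjusted p = 9.02e-06), and arylsulfatase-like LOC121411879 had 931, 1131 and 476 against 2021, 2251 and 1710.1 (log2 fold change -1.30, adjusted p = 1.78e-05). None of the 3 overlapped. In the list of carbohydrate sulfotransferases and arylsulfatases, 7 of 134 genes fell and 5 rose, shares of 5.22% and 3.73% beside 3.44% and 2.79% of all genes tested.

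Of 18 lipid carrier genes, 5 rose (27.8%) and 3 fell (16.7%), and without mating 3 the counts were 5 and 1. Among those that rose were uncharacterized genes whose products carry the lipoprotein N-terminal domain of vitellogenins and related lipid carriers. LOC121423558 (chromosome 11, 24089582 to 24138825) had 25416, 29939.7 and 27329.5 normalized counts with axitinib and 12129, 15462 and 14158 with DMSO (log2 fold change 0.99, SE 0.0921, adjusted p = 5.91e-06), and the nearby LOC121423421 had 1669, 2478 and 2157 against 782, 1461 and 1078 (log2 fold change 0.95, adjusted p = 2e-05). The third, LOC121423851, had 35611, 20503 and 33404 against 12725, 12501 and 21731 (log2 fold change 0.94, adjusted p = 0.000432), and its groups overlapped through mating 2 with axitinib and mating 3 with DMSO. Microsomal triglyceride transfer protein large subunit-like (LOC121431591), which loads lipid onto lipoproteins, rose by 0.66 (adjusted p = 0.00125). Outside that list, retinol-binding protein 1-like (LOC121417977), a carrier of vitamin A, had 143, 126 and 116 against 8.7, 7.96 and 75.4 (log2 fold change 2.42, adjusted p = 0.00519). The genes of the list that fell encode small intracellular carriers, fatty acid-binding protein, liver-like LOC121412188, 5-like LOC121418198 and heart-like LOC121409048 (log2 fold changes -2.18, -1.67 and -0.51, adjusted p = 0.0261, 0.00451 and 0.0133). The liver-like gene was not called without mating 1 or 3 (0.151 and 0.145), and the heart-like gene was not called without mating 3 (0.215).

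Of 122 chaperone and protein folding stress genes, 9 rose (7.38%) and 3 fell (2.46%), beside 2.79% and 3.44% of all genes tested. Their median log2 fold change was 0.12, and the counts that rose were 3, 13 and 4 when mating 1, 2 or 3 was left out. The 2 largest rises were neighbouring heat shock 70 kDa protein IV genes on chromosome 15, LOC121428833 with 1364, 520.3 and 189 normalized counts under axitinib against 379, 184 and 23 under DMSO (log2 fold change 1.92, SE 0.183, adjusted p = 7.7e-06). LOC121428778 had 2067, 303 and 158 against 468, 196 and 38.8 (log2 fold change 1.57, adjusted p = 0.000338). Both genes were highest in mating 1 and lowest in mating 3 under either treatment, and reads may be shared between the copies. Among those that fell was peptidyl-prolyl cis-trans isomerase B-like (LOC121414802), of a class of protein-folding enzymes, with 726, 115 and 344 normalized counts with axitinib against 1505, 926 and 1155 with DMSO (log2 fold change -1.85, adjusted p = 0.000113). Heat shock protein HSP 90-beta-like (LOC121419265) rose by 0.42 (adjusted p = 0.0182; 0.0957 without mating 1 and 0.266 without mating 3). Of the metabolic enzymes named by the rule, aldehyde dehydrogenase, mitochondrial-like (LOC121423422) had 839, 487 and 1305 against 251, 74.2 and 451 (log2 fold change 1.92, adjusted p = 3.47e-06), gamma-butyrobetaine dioxygenase-like (LOC121421629), of carnitine synthesis, 1453, 1092 and 694 against 496, 294 and 251 (1.64, adjusted p = 2.38e-07), and ornithine decarboxylase-like (LOC121430985), of polyamine synthesis, 254, 449.9 and 374 against 95.7, 179 and 93.2 (1.57, adjusted p = 1.52e-05).

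Innate immune genes outside the SRCR list rose in 6 of 66 cases (9.09%) and fell in 1 (1.52%), beside 2.79% and 3.44% of all genes tested. Their median log2 fold change was 0.11, and without mating 3 the counts were 3 and 0. Complement C3-like (LOC121417165), the central protein of the complement system, had 713, 743 and 3051 normalized counts with axitinib and 319.6, 545 and 1103 with DMSO (log2 fold change 1.03, SE 0.15, adjusted p = 0.000432). Complement C2-like (LOC121428574) and toll-like receptor 3 (LOC121411011) rose by 1.13 and 2.03 (adjusted p = 0.0154 and 0.0177), the first with 35.7, 77.5 and 182 against 9.79, 46 and 81.7 and the second with 27.3, 28.2 and 39 against 5.44, 8.84 and 8.38. Mating 3 was highest for both complement genes under either treatment, and calls were lost for complement C2-like without mating 3 (0.213) and for the toll-like receptor without mating 1 or 3 (0.0879 and 0.134). The SRCR domain-containing group B protein-like gene LOC121429458 had 27669, 31375 and 26704 against 14659, 16458 and 16248 (log2 fold change 0.85, SE 0.0944, adjusted p = 3.31e-05).

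Pigment cell synthesis genes (polyketide synthase and flavin-containing monooxygenases) rose in 3 of 14 cases (21.4%). In edgeR or DESeq2 0 fell, nor at an unadjusted p under 0.05, with 8 higher at that p. Their median log2 fold change was 0.32. The list was drawn by name and is not specific to pigment cells, and the 3 genes that rose were all monooxygenases. Dimethylaniline monooxygenase [N-oxide-forming] 2-like LOC121428344 had 5064, 5522 and 4329.8 normalized counts with axitinib and 3906, 4280.1 and 2982 with DMSO (log2 fold change 0.43, SE 0.0912, adjusted p = 0.00933; 0.138 without mating 3). Similar copies may share reads here too. Of 51 tubulins 8 rose (15.7%) and 2 fell (3.92%), or 2 and 0 without mating 3. The median was 0.19, and the changes were small: tubulin beta chain-like LOC121428185 rose by 0.84 and LOC121428094 by 0.48 (adjusted p = 0.00044 and 0.00373), while tubulin alpha-1 chain-like LOC121414525 fell by 0.53 (adjusted p = 0.00301; 0.0542 without mating 3). For a family of such similar copies the split between members is uncertain.

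Few genes of general cell function were called. Among 82 cytosolic ribosomal proteins 0 were called in either direction by edgeR and 0 by DESeq2, with 0 lower and 7 higher at an unadjusted p under 0.05. Among 22 histones 0 were called by either tool and 0 passed an unadjusted p of 0.05. The median log2 fold changes of these lists were 0.06 and 0.05. Of 124 motile cilium genes 1 rose (0.806%), dynein assembly factor 1, axonemal-like (LOC121417498, log2 fold change 0.59, adjusted p = 0.0292; 0.0545 without mating 1 and 0.21 without mating 2). Of 124 cell cycle and DNA replication genes 2 fell (1.61%), cyclin-dependent kinase 4 (LOC447791) and G1/S-specific cyclin-D1-like (LOC121405827), partners in the entry into the cell cycle. The cyclin had 7622, 8201 and 5961 normalized counts with axitinib and 10276, 9851 and 9167 with DMSO (log2 fold change -0.44, SE 0.0966, adjusted p = 0.0112), and the kinase fell by 0.61 (adjusted p = 0.0225). The cyclin was not called without mating 1 or 3 (0.0645 and 0.186), nor the kinase without mating 2 or 3 (0.0694 and 0.195). Of 74 oxidative phosphorylation genes 2 rose (2.7%) and 0 fell in edgeR or DESeq2, nor at an unadjusted p under 0.05.

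**Figure D4:**
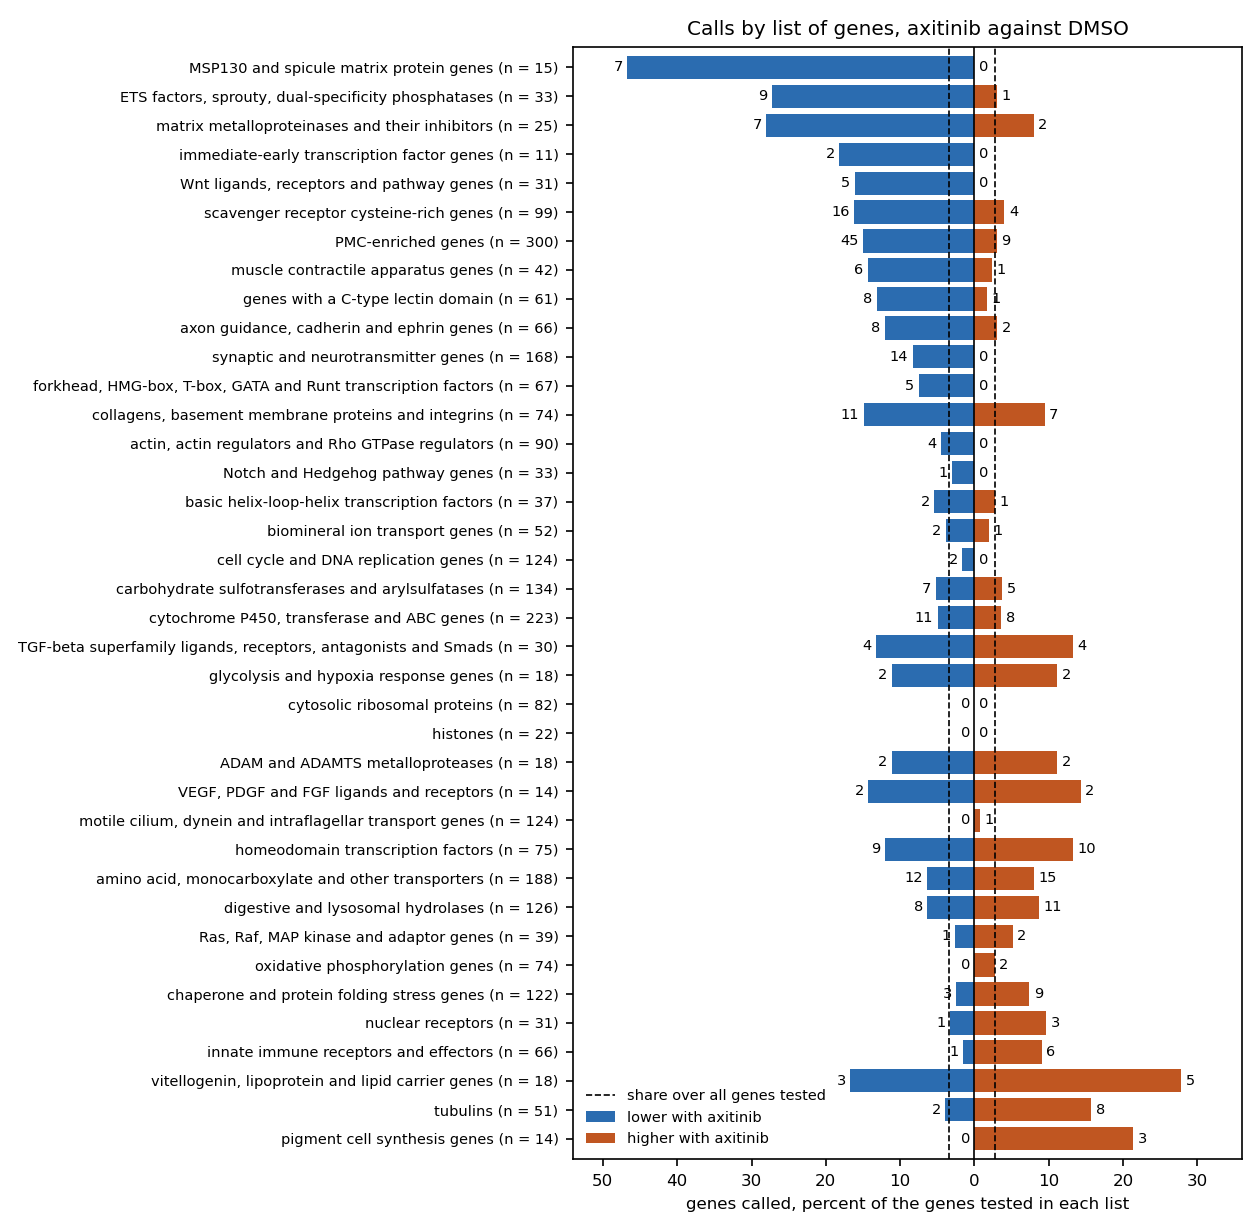
Share of the genes tested in each of 38 functional lists that fell (blue, left of 0) or rose (orange, right of 0) with axitinib, in percent, with the number of genes called at each bar's end and dashed lines at the shares over all genes tested, 3.44% and 2.79%. MSP130 and spicule matrix, ETS and sprouty, and matrix metalloproteinase lists reach farthest left, and lipid carrier and pigment lists farthest right.

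Of the 16035 genes tested, 13329 were in none of the 38 lists, and 352 of these fell (2.64%) and 322 rose (2.42%). Of the 3368 genes with no function name, 137 fell (4.07%) and 99 rose (2.94%), beside 3.44% and 2.79% of all genes tested. Genes called in the same direction were next to each other more often than the same count over all genes: 87 of the 551 genes that fell (15.8%) had an adjacent tested gene that also fell, beside 6.72% of all genes tested, and 63 of the 447 that rose (14.1%) had an adjacent gene that also rose, beside 5.44%. Adjacent copies that share reads enter these shares. By length-scaled level (FPKM), genes that fell had a median of 6.14 with axitinib and 11.3 with DMSO, and genes that rose a median of 16.9 with axitinib and 10.1 with DMSO, whereas the median over all genes tested was 5.07 with axitinib and 5.14 with DMSO.

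Marker lists of cell types were summed in each library. They are not a separate readout, because they share genes with the lists above. The pigment cell markers are the pigment cell synthesis genes, which were drawn by name and are not specific to pigment cells. The blastocoelar and immune markers are the SRCR list. Some skeletogenic markers are in the MSP130 and spicule matrix list. All skeletogenic markers but alx1 are listed by the study as lowered by axitinib, K02288 or both in these same libraries. A fall of their sum is therefore no separate support, and their median log2 fold change was -0.88, beside -0.14 for the 300 tested PMC-enriched genes. The summed normalized counts of the 6 skeletogenic markers were 14949 to 22826 with axitinib and 28734 to 40612 with DMSO, or 0.562, 0.672 and 0.487 of DMSO in matings 1, 2 and 3. Most of each sum was the sm30a gene LOC121406020. It had 15298, 12205 and 8431 normalized counts with axitinib against 30738, 21728 and 22616 with DMSO. Of the 6 markers 4 fell, while alx1 rose and the sixth, the sm29 gene LOC121405931, was not called (log2 fold change -0.01, adjusted p = 0.984). Among those that fell, the sm30f gene LOC121406359 had overlapping groups (578, 83.5 and 17.8 against 813, 496 and 550) and a DESeq2 adjusted p of 0.185. It also fell with K02288 against DMSO (log2 fold change -1.88, edgeR adjusted p = 8.04e-05), and by its own calls the study lists it as lowered by K02288 and not by axitinib. The 20 pigment cell markers were 1.39, 1.09 and 1.42 times DMSO (14936 to 21570 against 10491 to 16214), with 3 of 14 tested genes higher, all 3 monooxygenases. The most abundant, polyketide synthase gene LOC121428528, had 10620, 5713 and 6014 normalized counts against 6401, 6536 and 3704. It fell in mating 2 and was not called (adjusted p = 0.114). The other polyketide synthase gene, LOC121409238, was unchanged (log2 fold change 0.00, adjusted p = 0.996), and 2 of the tested genes had a log2 fold change below 0. The 12 muscle markers (troponin, tropomyosin and muscle myosin) were 0.887, 0.994 and 0.832 times DMSO (33903 to 39843 against 38207 to 41609), and the 5 neuronal markers 0.973, 1.02 and 0.89 times (4991 to 5653 against 5131 to 5853), with 0 genes called in either list by edgeR. Ciliated cell (0.975, 1.2 and 1.25), gut (0.959, 1.18 and 1.06), blastocoelar and immune (0.981, 1.03 and 0.916) and germline (1.05, 1.1 and 1.15) marker sums lay between 0.916 and 1.25 times DMSO. The gut list was drawn by name, and it includes cytosolic and tubulinyl-Tyr carboxypeptidases, so it is not specific to gut. In it 2 genes fell and 3 rose. Of the blastocoelar and immune list 16 fell and 4 rose. That list takes in every SRCR gene, lysyl oxidase and neurotrypsin genes included, and is not specific to immune cells. One that fell, LOC121424209 (log2 fold change -0.60, adjusted p = 0.0111), is listed by the study as PMC-enriched. That last sum holds opposite changes of abundant genes, since LOC121429458 rose (26704 to 31375 normalized counts against 14659 to 16458) and LOC121410506 fell (3883 to 7879 against 16769 to 21823). No marker list was absent from these embryos, and 2 gut and 56 SRCR genes were at 0 in all 6 libraries. The part of changes in cell number in the falls of skeletal genes and the rises of monooxygenase genes was not tested.

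**Figure D5:**
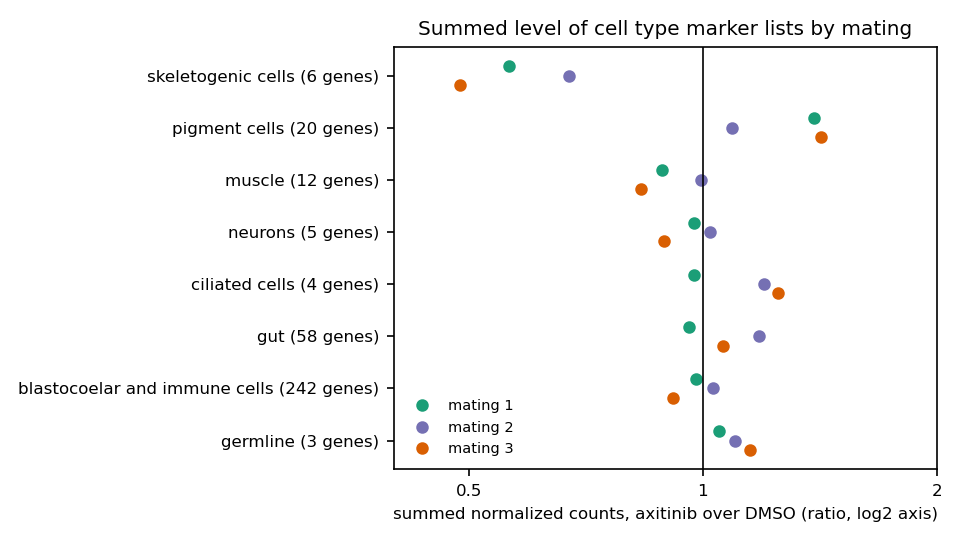
Ratio of summed normalized counts of cell type marker lists, axitinib over DMSO (x axis, log2 scale), with 1 point per mating and a line at 1. Skeletogenic markers lie at 0.487 to 0.672, pigment cell markers at 1.09 to 1.42, and the other 6 lists between 0.832 and 1.25. The skeletogenic markers other than alx1 are genes that the study lists as lowered by an inhibitor in these same libraries.

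Set against K02288 directly, 819 genes (5.06% of 16197 tested) were lower with axitinib than with K02288 and 502 (3.1%) were higher, 1321 (8.16%) in all. Such a difference can come from either inhibitor, and the axitinib libraries are those already compared with DMSO. The sm29 gene LOC121405931, for example, was higher with axitinib than with K02288 (log2 fold change 0.67, adjusted p = 1.81e-05), while its difference between axitinib and DMSO was -0.01 in log2 (adjusted p = 0.984). ETS translocation variant 1-like (LOC121410751) had 646, 744 and 640.2 normalized counts with axitinib, 3108.7, 4319 and 3501.6 with K02288 and 4055, 4297 and 4000.4 with DMSO, and the VEGF receptor gene LOC121408625 had 709.6, 630.7 and 717.6 with K02288 (axitinib over K02288, log2 fold changes -2.42 and -1.15, adjusted p = 8.22e-10 and 3.8e-06). In both genes every axitinib library lay below every K02288 and DMSO library. The nodal homolog LOC121431988 was at 0, 3.83 and 0 normalized counts with K02288 against 129, 156 and 101 with axitinib, and the inhibitors differed (adjusted p = 1.01e-06). For other genes a difference between the inhibitors was not detected, with a log2 fold change of -0.03 (SE 0.104, adjusted p = 0.936) for the lipid carrier gene LOC121423558 and 0.04 (SE 0.14, adjusted p = 0.914) for LOC121407396, which fell against DMSO (196, 151 and 236 with axitinib, 180.8, 157.9 and 224.5 with K02288, 822, 475 and 628 with DMSO).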

How the data were processed

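The authors sequenced poly-A RNA from whole embryos of 3 matings after strand-specific cDNA synthesis, and reads were mapped with HISAT2 to genome v3.0; whether counting used strand is not given in the sources used here. The authors deposited raw whole-number counts per gene and FPKM values, which per the file headers are fragments scaled by gene length and library size. Library sizes are given in the report, intervals and floors cover counting error only, and no columns of other samples were found. All 26814 genes matched the RefSeq annotation (assembly Lvar_3.0) by identifier and coordinates. The deposited tables also hold functional descriptions, which gave the lists.

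Counts of the 3 axitinib and 3 DMSO libraries were fitted with edgeR 4.0.16 in R 4.3.3 (filterByExpr by treatment, TMM, glmQLFit, glmQLFTest) with the mating as a block, and the Benjamini-Hochberg adjustment ran over every gene tested. The pairing comes from the methods, where a replicate number is 1 mating, and it was checked: after removal of treatment means, libraries of 1 mating correlated across genes at r = 0.706, 0.723 and 0.738 and other pairs at -0.403 to -0.329. Removal of a mean over 3 libraries pushes the other pairs below 0, so their negative sign carries no information of its own. Axitinib and K02288 libraries were fitted the same way. The methods of the study used DESeq2 at a P of at most 0.05. Normalized counts are TMM-scaled over the 9 libraries.

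Alternatives were no replicate block, RLE normalization, no filter, at least 10 counts in every library, DESeq2 1.42.0, all 9 libraries in 1 fit, limma-trend (limma 3.58.1) on log2(FPKM + 1), an unadjusted threshold, and leaving out each mating. Genes were named by a rule: up to 15 in each direction by p and up to 10 by fold (mean of at least 20 normalized counts), among called genes (adjusted p under 0.05) whose 3 matings shared a direction; up to 4 per list and direction by p, or the 2 most abundant members where none was called; all VEGF, PDGF and FGF genes; and, beside the rule, the skeletogenic cell type markers. Another 14 genes were added after their values were seen. Members and lists were chosen with earlier results of these data known, and wrong text matches in some lists were corrected, partly after values were seen.

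Simulated data (16035 genes, of which 200 changed) served to test the fits. With mating differences of an SD of 0.4 in log2, the fit with the mating recovered 85% of changes of 1 in log2 and 99% of changes of 2, and the fit without it 0% and 55%. Every simulated gene had the same biological variation, and a changed gene changed by the same amount in each mating. Real genes are less uniform, so these values do not measure the recovery of real changes. Plots used matplotlib 3.10.9 (Python 3.11.15).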

Additional observations from a re-analysis of the deposited data

How the results depend on the processing

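The replicate block decided most calls. Without the replicate block, that is without the pairing by mating, 16 genes fell and 4 rose with axitinib against DMSO, and 25 genes differed between axitinib and K02288; of the 233 named genes, 34 stayed on the same side of the threshold and 199 were no longer called. With the block but no adjustment (p at most 0.05), 1422 genes counted as lower and 1437 as higher; for genes that differ between axitinib and K02288 the count was 3170. DESeq2 called 381 lower and 267 higher, and limma-trend on log2(FPKM + 1) gave 871 genes that differed from K02288. Leaving out 1 mating at a time gave 321 to 536 genes that fell, 203 to 365 that rose and 894 to 1377 that differed from K02288, with the lowest of each without mating 3; a fit on 2 matings has fewer samples. Over all alternatives, the named genes gave 2538 values, of which 2104 kept their direction and side of the threshold, 420 lost the call, 5 gained one and 9 changed sign. The sign changes were all in genes not called: with a mating left out, log2 fold changes ran from -0.406 to 0.0523 for LOC121420341 (0.0523 without mating 1), from -0.389 to 0.0663 for LOC121426153 (0.0663 without mating 3), from -0.265 to 0.062 for LOC121413828 (0.062 without mating 2), from -0.263 to 0.0574 for LOC121419550 (above 0 without mating 1 or mating 3), from -0.223 to 0.105 for LOC121405931 (above 0 without mating 1 or mating 3), from -0.0714 to 0.0727 for LOC121425598 (-0.0714 without mating 1) and from -0.0444 to 0.119 for LOC121423267 (-0.0444 without mating 2). RLE normalization, no filter, at least 10 counts in every library and all 9 libraries in 1 fit kept the 3 counts within 1.5 times. The median log2 fold change of all genes against DMSO was 0.00 to 0.02 under every setting. With 3 matings, a gene that missed the threshold was not shown to be the same in both treatments. The simulated recovery of 85% for changes of 1 in log2 holds only for genes as uniform as those simulated.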
